A study of Mus musculus with 8 samples.

Results

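The chaperonin containing TCP1 (CCT, also called TRiC) is built from 8 subunit genes in mouse cells, Tcp1, Cct2, Cct3, Cct4, Cct5, Cct6a, Cct7 and Cct8. They were chosen by symbol from the 48500 genes of the expression table, and each symbol had 1 row there. The choice was made with earlier results of these libraries known, in which the subunits stood out between the genotypes, so their difference between genotypes is described here without a test. Leukaemia stem cells were measured in Nynrin-/- mice (Nynrin-KO, 4 libraries, KO1 to KO4) and Nynrin+/+ mice (WT, 4 libraries, WT1 to WT4) with acute myeloid leukaemia. In both genotypes the leukaemia was driven by HOXA9 and MEIS1, transcription factors that keep myeloid progenitors in self-renewal, and the cells came from bone marrow. About 10000 cells that carried GFP and c-Kit but no Gr-1 were sorted per library and amplified with the Smart-Seq V4 kit, which is meant for very small inputs. The vector that drives HOXA9 and MEIS1, the age and sex of the mice, the deleted part of Nynrin and any pooling of animals are not stated in the labels.

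CCT is a cytosolic folding machine made of back-to-back rings, and each ring holds 1 copy of every subunit. Unfolded protein enters the chamber, ATP binding and hydrolysis close a built-in lid over it, and the protein folds inside. Actins and tubulins depend on this complex, prefoldin and phosducin-like proteins hand substrates to it or work with it, and the tubulin folding cofactors take tubulins onward after release. CCT levels are known to be high in growing cells. In yeast, the subunits that correspond to Cct2, Cct4 and Cct5 bind ATP with high affinity, and those that correspond to Cct3, Cct6a and Cct8 bind it weakly.

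The subunits are homologous, and a short coding stretch around their ATP-binding loop is shown because it is where their likeness is easiest to see. The capitals mark the 5 codons of the conserved loop motif, found by a search of the GENCODE M21 transcripts in all frames, and each stretch is 30 bases long.
Tcp1: aaagaagttGGAGATGGAACTACCtcagtg
Cct2: gatgaagttGGTGATGGCACTACCtctgtt
Cct3: gaagaggttGGAGATGGGACCACAtcagta
Cct4: atagaagcaGGAGATGGCACCACGtcggtt
Cct5: gatgaaattGGAGATGGGACCACAggagtg
Cct6a: gacataactGGCGATGGCACTACAtccaat
Cct7: gctgaggttGGTGATGGCACCACCtcagtg
Cct8: caagaggttGGTGATGGCACAAACttcgtt
The longest run of identical bases shared by any pair of subunit transcripts was 17 bases, and over all 28 pairs the longest shared run lay between 10 and 17 bases. A search of the annotated transcripts found 13 other genes with at least 300 bases at 80% identity or more to a subunit. Of these, 10 were processed pseudogenes, among them Cct3-ps1 at 91.4% and Tcp1-ps1 at 87.2% identity, and none of the 10 reached more than 1.85 FPKM in any library.

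Levels are given in FPKM (fragments per kilobase of transcript and per M mapped reads, M for mega). The recovered depth ranged between 1.83 and 28.7 M reads in the Nynrin-KO libraries and between 1.96 and 33.1 M in the WT libraries. KO3 and WT3 were the shallow libraries of the groups. The 18 mature neutrophil markers made up between 20.5% and 37.9% of the summed FPKM in the Nynrin-KO libraries and between 0.546% and 15.9% in the WT libraries. Ly6g, the main antigen of the Gr-1 antibody, was present at 93.5 to 264 FPKM in Nynrin-KO and 0.707 to 49.3 FPKM in WT, although the sort was against Gr-1. Kit lay between 2.92 and 4.91 FPKM in Nynrin-KO and between 2.63 and 6.40 FPKM in WT. Of the 7 sort and model genes, 1 was lower in Nynrin-KO and 3 were higher, beside 13.8% and 14.0% of all tested genes. Cd34, a surface marker of stem and progenitor cells, was lower, at 6.26 ± 0.756 FPKM in Nynrin-KO and 86.4 ± 44.3 FPKM in WT (log2 difference -3.48, limma adjusted p = 9.29e-04). Meis1 was higher, at 3.69 ± 1.28 FPKM in Nynrin-KO and 0.816 ± 0.109 FPKM in WT (limma adjusted p = 0.00466), as was Hoxa9, at 3.52 ± 2.02 FPKM in Nynrin-KO and 1.06 ± 0.614 FPKM in WT (limma adjusted p = 0.0397). Meis1 reached 1 FPKM in Nynrin-KO libraries alone. It passed the filter of 1 FPKM in 4 or more libraries through the genotype where it is high, so its call is no evidence of its own. The part of these differences in the CCT levels was not tested. Nynrin itself was below 0.5 FPKM in each library of both genotypes and does not check the labels. The X-inactivation gene Xist and the Y-linked gene Ddx3y gave a female profile in WT1 to WT4, a male one in KO2, KO3 and KO4, and both transcripts in KO1 (Xist at 12.7 and Ddx3y at 2.18 FPKM), so genotype and sex cannot be told apart in these libraries. Whether each library came from a mouse of its own is not stated, so a p-value here measures library-to-library spread, which may be technical.

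All 8 subunit genes had lower levels in the Nynrin-KO libraries than in the WT libraries, and for none of them did the genotypes overlap. Nynrin-KO means ranged between 21.6% of the WT mean for Cct6a and 44.3% for Cct4. In limma's fit across 12524 genes, 8 of 8 were past an adjusted p of 0.05 in the lower direction, where 13.8% of all tested genes were called lower and 14.0% higher. Cct4 was not past it without KO1, nor were Cct2, Cct4 and Cct7 without both WT1 and KO1. Groups did not overlap, with Nynrin-KO lower, for 15.0% of all tested genes. These counts are no evidence of their own, because the same contrast chose the genes. The libraries are of bulk RNA, so fewer cells that make a subunit and less of its RNA per cell cannot be told apart.

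Of the subunits with high ATP affinity in yeast, Cct5 (the epsilon subunit, in which a human mutation causes a sensory neuropathy) was the most abundant. It had 63.3, 76.0, 60.3 and 100 FPKM in KO1 to KO4, against 437, 252, 173 and 227 FPKM in WT1 to WT4. Its means were 74.9 ± 18.1 FPKM in Nynrin-KO and 272 ± 115 FPKM in WT (SD, n = 4 each), a log2 difference of -1.79 (SE 0.30). WT1 was the highest of the WT libraries and KO4 the highest of the Nynrin-KO libraries.

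Cct4 (the delta subunit, which like Cct5 can form rings of its own when the human protein is made alone) had 39.7, 53.4, 37.0 and 64.2 FPKM in KO1 to KO4, against 165, 110, 74.5 and 89.9 FPKM in WT1 to WT4. The log2 difference of its means, 48.6 ± 12.6 FPKM in Nynrin-KO and 110 ± 39.7 FPKM in WT, was -1.13 (SE 0.29). This was the smallest difference among the subunits, and the highest Nynrin-KO library came closest to the lowest WT library, with a WT to Nynrin-KO ratio of 1.16 between them.

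Cct2 (the beta subunit) had 32.1, 32.7, 21.8 and 40.3 FPKM in KO1 to KO4, against 118, 86.9, 50.5 and 60.2 FPKM in WT1 to WT4. Its means were 31.7 ± 7.60 FPKM in Nynrin-KO and 78.9 ± 30.4 FPKM in WT, a log2 difference of -1.24 (SE 0.30). The shallow libraries KO3 and WT3 were the lowest of their genotypes, and KO3 rested on 78 Cct2 reads, the fewest of any subunit in any library.

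Among the subunits with weak ATP binding in yeast, Cct8 (the theta subunit) had the highest level of all 8 genes. It had 77.1, 94.1, 68.4 and 121 FPKM in KO1 to KO4, against 463, 294, 216 and 253 FPKM in WT1 to WT4. The means were 90.2 ± 23.2 FPKM in Nynrin-KO and 306 ± 109 FPKM in WT, with a log2 difference of -1.73 (SE 0.28). Again WT1 and KO4 stood highest in their genotypes.

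Cct6a (the zeta subunit of most tissues, whose close relative Cct6b is known from testis) differed most. It had 28.2, 33.0, 25.4 and 44.0 FPKM in KO1 to KO4, against 251, 140, 98.4 and 115 FPKM in WT1 to WT4. The means were 32.7 ± 8.16 FPKM in Nynrin-KO and 151 ± 68.7 FPKM in WT, with a log2 difference of -2.11 (SE 0.31). Even the lowest WT library, WT3, was 2.24 times the highest Nynrin-KO library, KO4, the widest gap of any subunit. Cct6b was low throughout, at no more than 0.878 FPKM in any library.

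Cct3 (the gamma subunit) had 21.2, 25.4, 18.1 and 33.4 FPKM in KO1 to KO4, against 129, 72.6, 46.4 and 60.2 FPKM in WT1 to WT4. Its means were 24.5 ± 6.64 FPKM in Nynrin-KO and 76.9 ± 36.0 FPKM in WT, a log2 difference of -1.54 (SE 0.32). It was the lowest subunit by FPKM in both genotypes.

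Tcp1 (the alpha subunit, which gave the complex its name from the mouse t-complex) had 21.9, 26.8, 26.6 and 34.4 FPKM in KO1 to KO4, against 124, 86.7, 59.6 and 65.4 FPKM in WT1 to WT4. The means were 27.4 ± 5.15 FPKM in Nynrin-KO and 84.0 ± 29.3 FPKM in WT, with a log2 difference of -1.54 (SE 0.26). KO1, not KO3, was its lowest Nynrin-KO library, unlike every other subunit.

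Cct7 (the eta subunit) had 39.2, 42.0, 21.8 and 58.2 FPKM in KO1 to KO4, against 172, 106, 73.9 and 98.4 FPKM in WT1 to WT4. Its means were 40.3 ± 14.9 FPKM in Nynrin-KO and 113 ± 42.1 FPKM in WT, a log2 difference of -1.47 (SE 0.34). The Nynrin-KO libraries were the most unequal for this gene, with a coefficient of variation of 36.9% in Nynrin-KO and 37.4% in WT.

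**Figure D1:**
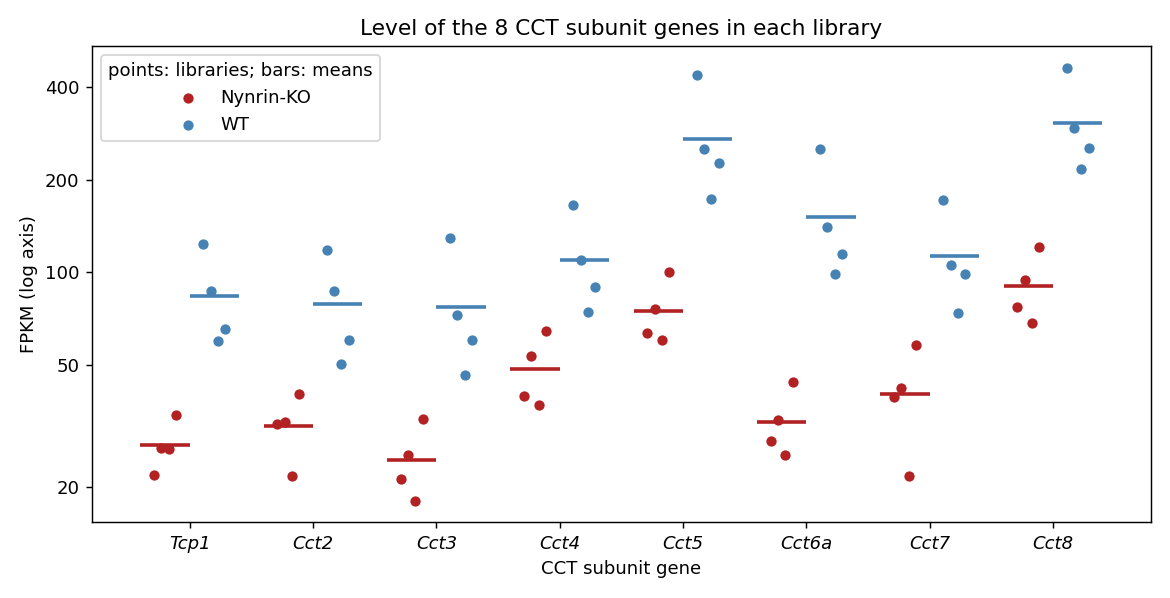
FPKM on a log axis of the 8 subunit genes, with a point for each of the 4 Nynrin-KO and 4 WT libraries and a bar at each genotype's mean. The Nynrin-KO points lie below the WT points for each gene, most widely for Cct6a and most narrowly for Cct4.

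Added over the 8 genes, the CCT level was 323, 383, 279 and 496 FPKM in KO1 to KO4, against 1860, 1147, 792 and 968 FPKM in WT1 to WT4. The sums averaged 370 ± 93.8 FPKM in Nynrin-KO and 1192 ± 468 FPKM in WT (SD, n = 4 each). The WT mean was 3.22 times the Nynrin-KO mean. The libraries kept nearly the same order gene by gene. KO4 was highest of the Nynrin-KO libraries for 8 of 8 subunits, and the order KO4, KO2, KO1, KO3 held for 7 of them. In WT the order WT1, WT2, WT4, WT3 held for 8 of 8. Reads assigned to the 8 genes together numbered 7875, 22671, 1294 and 36634 in KO1 to KO4, against 155499, 20552, 3943 and 42316 in WT1 to WT4. The shallow pair KO3 and WT3 thus had the fewest reads and the lowest sums in their genotypes.

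The median log2 difference of the 8 subunits was -1.54, while that of all tested genes was -0.03. Of the 617 tested genes with a mean between 50.7 and 198 FPKM, the range of the subunit means, 42.3% were called lower, beside 13.8% of all tested genes, and their median log2 difference was -0.60. A log2 difference at or below that of Cct4 was found for 9.31% of all tested genes.

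The shares of some subunits in the summed CCT level also differed between the genotypes. These shares come from the contrast that chose the genes, carry no test and have no background from other genes beside them. Cct6a made up 8.83 ± 0.212% of the sum in Nynrin-KO and 12.5 ± 0.691% in WT (SD, n = 4 each). Cct4 went the other way, with 13.1 ± 0.674% in Nynrin-KO and 9.28 ± 0.284% in WT. Neither pair of ranges overlapped, since Cct6a lay between 8.60% and 9.10% in Nynrin-KO and between 11.9% and 13.5% in WT, and Cct4 between 12.3% and 13.9% in Nynrin-KO and between 8.88% and 9.55% in WT. Cct2 held 8.61 ± 0.949% in Nynrin-KO and 6.63 ± 0.638% in WT, also without overlap. Cct5 had a share of 20.3 ± 0.883% in Nynrin-KO and 22.7 ± 0.903% in WT, and Cct8 one of 24.3 ± 0.303% in Nynrin-KO and 26.0 ± 0.999% in WT. Their ranges lay close but did not overlap. Cct5 reached 21.6% in Nynrin-KO and began at 21.8% in WT, and Cct8 reached 24.5% in Nynrin-KO and began at 24.9% in WT. The shares of Cct3, Cct7 and Tcp1 overlapped between the genotypes. Cct3 held 6.60 ± 0.115% in Nynrin-KO and 6.33 ± 0.437% in WT.

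As a ratio within each library, which needs no scaling between libraries, log2 of Cct4 over Cct6a was 0.57 ± 0.09 in Nynrin-KO and -0.43 ± 0.12 in WT. Cct4 exceeded Cct6a in 4 of 4 Nynrin-KO libraries and in 0 of 4 WT libraries. Among the 28 pairs of subunits, 15 (53.6%) had log2 ratios that did not overlap between genotypes. Among all pairs of the 616 tested genes in the range of the subunit means with no library at 0, the share was 57.8%, so the count of pairs does not set the subunits apart. Cct6a took part in 7 of its 7 pairs and Cct4 in 5 of its 7, while Cct7 took part in 1 of 7. These ratios come from the contrast that chose the genes and carry no test.

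**Figure D2:**
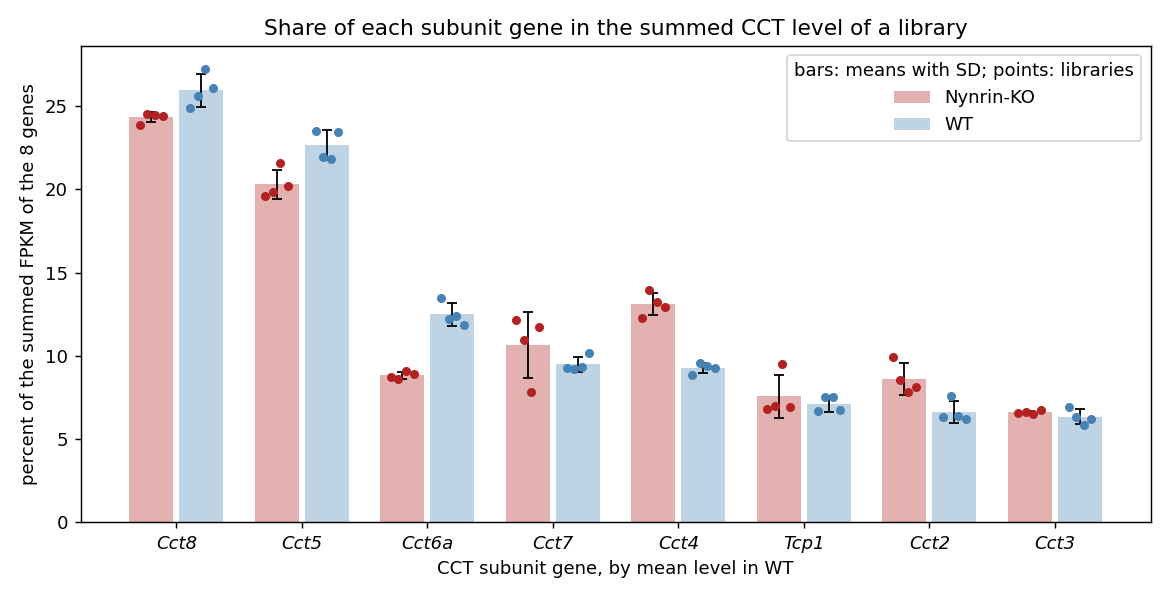
Share of each subunit gene, in percent of the summed FPKM of the 8 genes in a library, with bars for genotype means, error bars for SD and a point for each library. Cct6a has a smaller share in Nynrin-KO (8.83%) than in WT (12.5%), and Cct4 a larger share in Nynrin-KO (13.1%) than in WT (9.28%).

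By mean FPKM, the order in Nynrin-KO was Cct8, Cct5, Cct4, Cct7, Cct6a, Cct2, Tcp1 and Cct3, and in WT it was Cct8, Cct5, Cct6a, Cct7, Cct4, Tcp1, Cct2 and Cct3. Cct8 and Cct5 led and Cct3 came last in both genotypes. Over all 8 libraries the order by FPKM was Cct8, Cct5, Cct4, Cct6a, Cct7, Cct2, Tcp1 and Cct3, which is the order of neither genotype alone. Neighbours were compared by an exact two-sided sign-flip permutation test over the 8 libraries, adjusted over 7 pairs. It can give no p below 0.00781 before adjustment. The neighbours, here and with the other transcript lengths below, were picked from the order in these same libraries. Each p is thus for the ratio of a pair and not for the choice of the order. Cct8 exceeded Cct5 in 8 of 8 libraries by 0.23 ± 0.08 on the log2 scale (exact permutation, adjusted p = 0.0182). Cct5 exceeded Cct4 in 8 of 8 by 0.96 ± 0.36 (exact permutation, adjusted p = 0.0182), a ratio that was 0.63 ± 0.09 in Nynrin-KO and 1.29 ± 0.10 in WT. Cct7 exceeded Cct2 in 8 of 8 by 0.41 ± 0.22 (exact permutation, adjusted p = 0.0182). Cct4, Cct6a and Cct7 had no order common to the genotypes. Log2 of Cct6a over Cct7 was -0.25 ± 0.32 in Nynrin-KO and 0.40 ± 0.13 in WT, and, as given above, Cct4 over Cct6a also had opposite signs in the genotypes. The pooled ratios of both pairs, 0.07 each (exact permutation, adjusted p = 0.711), average over these opposite values and do not show that the levels were alike. Log2 of Cct2 over Tcp1 was 0.20 ± 0.35 in Nynrin-KO and -0.11 ± 0.10 in WT, and 0.04 over all libraries (exact permutation, adjusted p = 0.711). Tcp1 exceeded Cct3 in 7 of 8 libraries by 0.18 ± 0.20 (exact permutation, adjusted p = 0.0547).

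The middle of this order changed with the transcript length used. The deposited values gave whole reads when the longest annotated transcript of each gene was taken as its length. For Tcp1, Cct3 and Cct7 that is a retained-intron transcript of 3419, 3335 and 3884 bases, while their principal coding transcripts have 2446, 1977 and 2441 bases. Per kilobase of the principal transcript, an alternative chosen after seeing the data, the order became Cct8, Cct5, Cct7, Cct4, Cct3, Cct6a, Tcp1 and Cct2. Cct6a has no tagged principal transcript and is annotated as a processed transcript, so its longest transcript of 2454 bases stood in. Cct8 and Cct5 stayed at the top, and Cct2 moved to the bottom, below Tcp1 by 0.44 on the log2 scale (exact permutation, adjusted p = 0.0273).

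Promoters of 7 subunits matched the RefSeq table of sequences on GRCm38.p6, 300 bases each around the annotated start. Cct4 was not among them. They were searched on both strands for 6 short motifs, and 4 of the promoters are shown because together they hold each kind of match found. The promoter of Tcp1 is chr17:12916079-12916378 on the plus strand, that of Cct5 chr15:31601797-31602096 on the minus strand, that of Cct7 chr6:85451255-85451554 on the plus strand and that of Cct8 chr16:87495820-87496119 on the minus strand. The capitals mark the motif matches on either strand, and no matches overlap.
Tcp1 promoter: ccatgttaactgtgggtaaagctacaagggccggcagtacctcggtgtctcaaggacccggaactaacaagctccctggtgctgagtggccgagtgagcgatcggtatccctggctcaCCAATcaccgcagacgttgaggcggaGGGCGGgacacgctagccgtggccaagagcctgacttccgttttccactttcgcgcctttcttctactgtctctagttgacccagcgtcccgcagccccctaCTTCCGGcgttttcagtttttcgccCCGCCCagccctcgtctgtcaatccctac
Cct5 promoter: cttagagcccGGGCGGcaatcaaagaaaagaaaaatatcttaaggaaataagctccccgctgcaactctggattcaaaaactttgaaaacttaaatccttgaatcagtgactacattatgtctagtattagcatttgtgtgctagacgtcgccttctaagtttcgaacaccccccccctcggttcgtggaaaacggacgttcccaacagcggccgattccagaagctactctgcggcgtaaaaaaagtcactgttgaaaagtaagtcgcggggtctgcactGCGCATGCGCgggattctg
Cct7 promoter: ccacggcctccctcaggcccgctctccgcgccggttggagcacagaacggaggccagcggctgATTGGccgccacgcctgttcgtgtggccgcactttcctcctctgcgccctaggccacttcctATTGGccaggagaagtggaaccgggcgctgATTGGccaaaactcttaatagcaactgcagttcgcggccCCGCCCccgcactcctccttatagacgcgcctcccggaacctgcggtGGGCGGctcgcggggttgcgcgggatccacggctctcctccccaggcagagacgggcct
Cct8 promoter: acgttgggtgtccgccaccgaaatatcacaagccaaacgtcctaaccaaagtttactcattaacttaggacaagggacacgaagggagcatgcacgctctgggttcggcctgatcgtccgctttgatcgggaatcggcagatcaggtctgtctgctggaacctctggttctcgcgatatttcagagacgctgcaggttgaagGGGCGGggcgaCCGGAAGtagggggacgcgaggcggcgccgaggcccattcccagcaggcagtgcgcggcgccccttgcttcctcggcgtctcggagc
The GC box GGGCGG was found in 7 of 7 subunit promoters and in 35.7% of the 32851 promoters of the table. The ETS core CCGGAAG was found in 3 of 7, those of Tcp1, Cct2 and Cct8, and in 8.86% of all promoters. The CCAAT box was found in 4 of 7, those of Tcp1, Cct3, Cct6a and Cct7, and in 37.4% of all promoters. The NRF1 palindrome, the capitals of the Cct5 promoter nearest its end, lay in the Cct5 promoter alone among the 7, and in 0.971% of all promoters. Neither the E-box CACGTG, bound by MYC among others, nor the heat shock element GAANNTTC was found in any of the 7 windows. They occur in 7.15% and 7.86% of all promoters. The heat shock element was searched in this order of its repeats only. The opposite order was not counted, although it can be read in the Cct5 and Cct6a promoters. The search thus does not show that the windows lack heat shock elements. The motif matches describe letters in the sequence and show no binding.

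The genes lie on 8 different chromosomes (mm10, GENCODE M21), Tcp1 on chr17:12915701-12925067, Cct2 on chr10:117051001-117063814, Cct3 on chr3:88297116-88321767, Cct4 on chr11:22990519-23003780, Cct5 on chr15:31590800-31601804, Cct6a on chr5:129786998-129846371, Cct7 on chr6:85451514-85468475 and Cct8 on chr16:87483326-87495873. Several of them overlap a gene on the opposite strand, and without a stated use of strand such reads could be shared. Tcp1 overlaps Mrpl18, which encodes a mitochondrial ribosomal protein, over 645 bases. Mrpl18 had 21.3, 23.7, 12.1 and 26.9 FPKM in KO1 to KO4, against 53.4, 48.0, 27.6 and 37.3 FPKM in WT1 to WT4. The far end of Tcp1 overlaps Acat3, at no more than 1.53 FPKM in any library, and matches 445 bases of its relative Acat2 at 98.7% identity. Acat2 lay between 2.92 and 8.07 FPKM in Nynrin-KO and between 8.83 and 12.9 FPKM in WT, and the level of Tcp1 is uncertain by any reads counted across these genes. Cct6a overlaps Psph, an enzyme of serine synthesis, over 452 bases, and Psph was between 2.09 and 4.18 FPKM in Nynrin-KO and between 2.54 and 4.37 FPKM in WT. Cct7 overlaps Pradc1 over 457 bases and Cct8 overlaps Usp16 over 192 bases, and neither partner was above 10.1 FPKM in any library.

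The genes that work with CCT did not show one pattern. In the lists of partners and substrates, chosen with the results of these libraries known, both genes of the mitochondrial chaperonin and 7 of 9 tubulins were lower in Nynrin-KO, while no gene of the prefoldin, phosducin-like or tubulin cofactor lists passed the threshold. The difference between one list and another was not tested. The shares of all tested genes called, 13.8% lower and 14.0% higher, are the background of each count.

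Prefoldin, the complex that delivers unfolded actin and tubulin to CCT, had 6 of 6 genes tested, none of them past the threshold in limma, at an unadjusted p under 0.05 or with voom (0 in each). The median log2 difference was -0.27. Pfdn6, the member with the smallest p, averaged 10.5 ± 1.87 FPKM in Nynrin-KO and 15.2 ± 5.94 FPKM in WT, a log2 difference of -0.46 (SE 0.25, limma adjusted p = 0.206). Pfdn4 averaged 5.15 ± 0.820 FPKM in Nynrin-KO and 6.46 ± 1.09 FPKM in WT, with -0.28 (SE 0.17, limma adjusted p = 0.253).

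Of the phosducin-like and other CCT cofactors, 4 of 5 genes were tested and 0 passed in limma, with 0 at an unadjusted p under 0.05 and 1 past the threshold with voom, and their median was 0.06. Pdcd5, a small protein that binds CCT, averaged 22.4 ± 1.12 FPKM in Nynrin-KO and 37.4 ± 16.5 FPKM in WT, with a log2 difference of -0.61 (SE 0.30, limma adjusted p = 0.156). With voom its adjusted p was 0.0384 and without WT3 it was 0.0263. Of the tubulin folding cofactors, 5 of 6 were tested and 0 passed in limma, with 1 at an unadjusted p under 0.05 and 1 with voom, and their median was -0.38. Tbce, which works on alpha-tubulin, averaged 10.9 ± 2.36 FPKM in Nynrin-KO and 7.22 ± 1.52 FPKM in WT, with 0.53 (SE 0.21, limma adjusted p = 0.0951). Its adjusted p was 0.0333 without KO3, 0.0485 with voom and 0.0264 when scaled to the reads outside the neutrophil markers and Gm10800.

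Among 13 cytoskeletal substrates of CCT, 7 were lower in Nynrin-KO, 0 were higher, and the median log2 difference was -0.98. Each of the 7 was a tubulin, the building block of microtubules, out of 9 tubulins in the list. Tuba1b had 159, 156, 144 and 202 FPKM in KO1 to KO4, against 917, 762, 629 and 569 FPKM in WT1 to WT4. Its log2 difference was -2.10 (SE 0.21, limma adjusted p = 0.00105), and the genotypes lay far apart. Tubb5 averaged 267 ± 43.8 FPKM in Nynrin-KO and 957 ± 242 FPKM in WT, with -1.82 (SE 0.24, limma adjusted p = 0.00190). Tuba1c averaged 152 ± 18.6 FPKM in Nynrin-KO and 392 ± 43.6 FPKM in WT, with -1.36 (SE 0.18, limma adjusted p = 0.00194). Tuba1a averaged 41.7 ± 6.22 FPKM in Nynrin-KO and 101 ± 9.50 FPKM in WT, with -1.26 (SE 0.18, limma adjusted p = 0.00234). Tuba4a, Tubb4b and the gamma-tubulin Tubg1 were the others, and Tubg1 was not past the threshold with WT1 and KO1 left out (limma adjusted p = 0.0649). The other tubulins of the list, named after their values were seen, were Tubb2a, between 17.0 and 38.0 FPKM in Nynrin-KO and between 16.9 and 28.5 FPKM in WT (log2 difference 0.11, limma adjusted p = 0.801), and Tubb6, with 17.6 ± 8.88 FPKM in Nynrin-KO and 15.4 ± 4.12 FPKM in WT (0.09, limma adjusted p = 0.876). Tubulin genes are close copies of each other, and how reads that match several of them were counted is not given, so their single levels are uncertain.

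The actins, the other classic substrates, are given here although the naming rule did not pick them, and were chosen after their values were seen. Actb averaged 8741 ± 628 FPKM in Nynrin-KO and 8712 ± 648 FPKM in WT, with a log2 difference of 0.01 (limma adjusted p = 0.988). Actg1 averaged 844 ± 98.4 FPKM in Nynrin-KO and 1266 ± 201 FPKM in WT, with -0.58 (SE 0.19, limma adjusted p = 0.0521). The genotypes did not overlap for Actg1. Its call changed to past the threshold in 2 of 17 alternatives, under median-ratio scaling (adjusted p = 0.0461) and with voom (adjusted p = 0.0333). After quantile normalization the log2 difference of Actg1 was -0.05 (limma adjusted p = 0.890), so its difference depended on the scaling.

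Of 13 other known substrates, such as WD-repeat proteins and cell-cycle regulators, 1 was lower and 1 was higher, with a median of -0.03. Ccne1, the cyclin E that drives entry into DNA replication, averaged 7.74 ± 1.97 FPKM in Nynrin-KO and 16.1 ± 5.52 FPKM in WT. Its log2 difference was -0.93 (SE 0.27, limma adjusted p = 0.0311), and KO4 lay above WT3. Stat3, a cytokine-responsive transcription factor, had 23.1, 30.6, 16.7 and 30.8 FPKM in KO1 to KO4, against 9.24, 11.2, 11.6 and 15.4 FPKM in WT1 to WT4, a log2 difference of 1.01 (SE 0.24, limma adjusted p = 0.0142). Neither call was stable, since Ccne1 lost it in 8 of 17 alternatives, with an adjusted p of up to 0.153, and Stat3 in 3 of 17, with up to 0.191.

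The mitochondrial chaperonin, a distant relative of CCT that folds proteins in the matrix, was lower in both of its genes. Hspd1, the ring protein, had 27.4, 35.2, 28.7 and 47.8 FPKM in KO1 to KO4, against 249, 155, 120 and 129 FPKM in WT1 to WT4. Its log2 difference was -2.17 (SE 0.28, limma adjusted p = 0.00190), and no libraries of the genotypes overlapped. Hspe1, its lid, averaged 20.9 ± 5.55 FPKM in Nynrin-KO and 70.2 ± 22.7 FPKM in WT, with -1.68 (SE 0.28, limma adjusted p = 0.00396). The heat shock factors, known activators of chaperone genes, had 2 of 2 genes tested and 0 past the threshold in limma, at an unadjusted p under 0.05 or with voom, with log2 differences of 0.37 for Hsf2 (limma adjusted p = 0.475) and -0.08 for Hsf1 (limma adjusted p = 0.791). Of the other genes of the CCT family, 1 of 5 was tested, Mkks, with 0.28 (limma adjusted p = 0.383, 0 at an unadjusted p under 0.05 and 0 with voom).

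**Figure D3:**
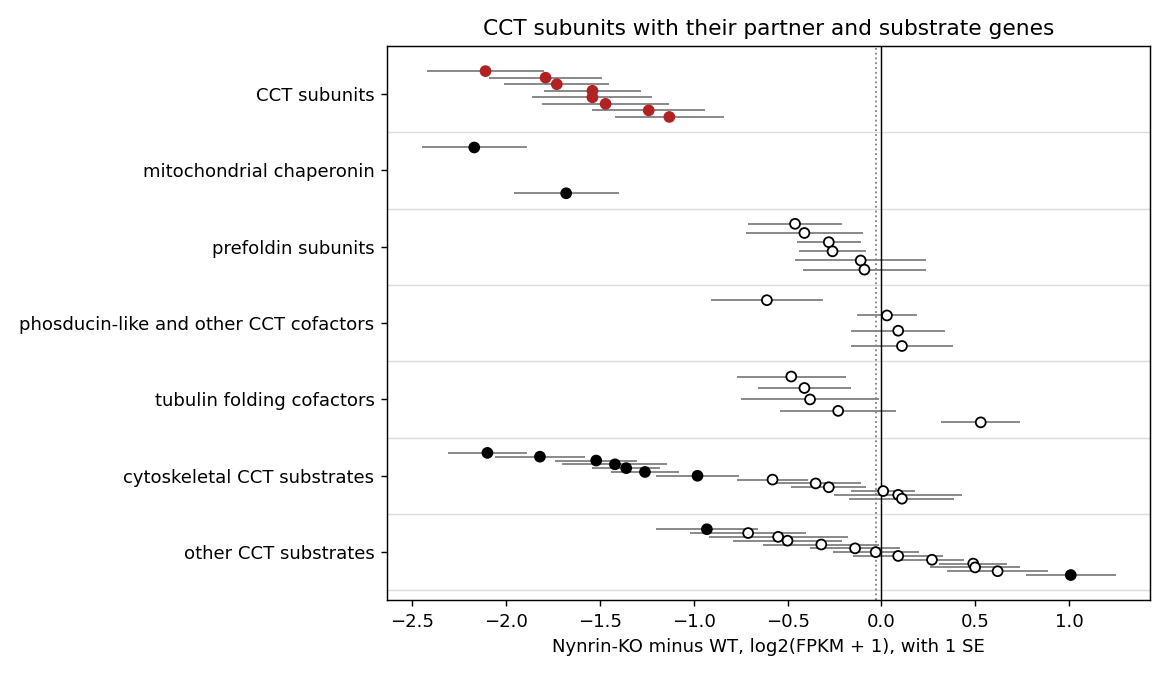
Log2 differences, Nynrin-KO minus WT, of the tested genes of 7 lists, with 1 SE, where filled black points are past the limma threshold, open ones are not, red points are the CCT subunits (chosen from this contrast) and the dotted line is the median of all genes (-0.03). The subunits lie between -2.11 and -1.13, the mitochondrial chaperonin at -2.17 and -1.68, and the prefoldin genes nearer 0.

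Markers of other cell types moved with the genotype too. Of the 18 mature neutrophil markers, 12 were higher in Nynrin-KO and 0 lower, their summed level ranged between 125633 and 284827 FPKM in Nynrin-KO and between 3066 and 105031 FPKM in WT, and none was at 0 in any library. Their share of the summed FPKM averaged 28.7 ± 7.34% in Nynrin-KO and 9.01 ± 6.58% in WT (exact permutation p = 0.0286, two-sided, the smallest that 70 arrangements can give). By reads, the markers held 14.5 ± 4.66% in Nynrin-KO and 4.43 ± 3.17% in WT (exact permutation p = 0.0286). With Gm10800 added, the percent of reads was 17.2 ± 6.62 in Nynrin-KO and 8.65 ± 5.54 in WT (exact permutation p = 0.143). The 11 monocyte and macrophage markers summed to between 398 and 1187 FPKM in Nynrin-KO and between 224 and 379 FPKM in WT, with 6 higher and 0 lower. The erythroid list summed to between 8.87 and 49.0 FPKM in Nynrin-KO and between 0.277 and 2.57 FPKM in WT, and the lymphoid list to between 110 and 232 FPKM in Nynrin-KO and between 0.850 and 11.1 FPKM in WT. In single libraries up to 2 of 8 erythroid markers were at 0 in Nynrin-KO and up to 4 in WT, and no lymphoid or monocyte marker was at 0 in Nynrin-KO, while 1 lymphoid marker was in WT2 and 1 of each list in WT3. Of the erythroid markers 3 of 3 tested were higher, and of the lymphoid markers 2 of 3, beside 14.0% of all tested genes. The erythroid Hbb-bs, Hba-a1 and Car2 and the lymphoid Cd79a reached 1 FPKM in Nynrin-KO libraries alone. So did Mrc1 among the monocyte and macrophage markers. These genes passed the filter through the genotype where they are high, so their calls are no evidence of their own. The part of these cells in the CCT difference was not tested.

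WT1 had the lowest neutrophil share, 0.546%, and the highest CCT sum. Within genotypes the libraries did not line up this way throughout. WT3, with the next lowest WT share of 7.62%, had the lowest WT sum, and KO4, with the next highest Nynrin-KO share of 30.2%, had the highest Nynrin-KO sum. Gm10800, an abundant unnamed gene model, was at 28612, 3349, 126894 and 3990 FPKM in KO1 to KO4. In WT1 to WT4 it was at 6076, 69970, 142258 and 37303 FPKM. Its part in the order of the libraries was not tested. No Nynrin-KO library had a neutrophil share as low as any WT library, so genotype and neutrophil share cannot be told apart in these libraries. The nearest libraries across the genotypes, a pair chosen after the values were seen, were KO2 with 20.5% and WT4 with 15.9%. By reads, these libraries had 8.79% in KO2 and 7.73% in WT4. Their CCT sums were 383 FPKM in KO2 and 968 FPKM in WT4, and all 8 subunits were lower in KO2, with WT4 over KO2 ratios between 1.68 and 3.50. Scaled to the reads outside the neutrophil markers and Gm10800, the log2 differences of the subunits lay between -1.97 and -0.99. This scale leaves out the reads of the listed markers only, not the other RNA of neutrophils. The pair and the scaled differences are both values of the contrast that chose the genes and are given as a description.

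**Figure D4:**
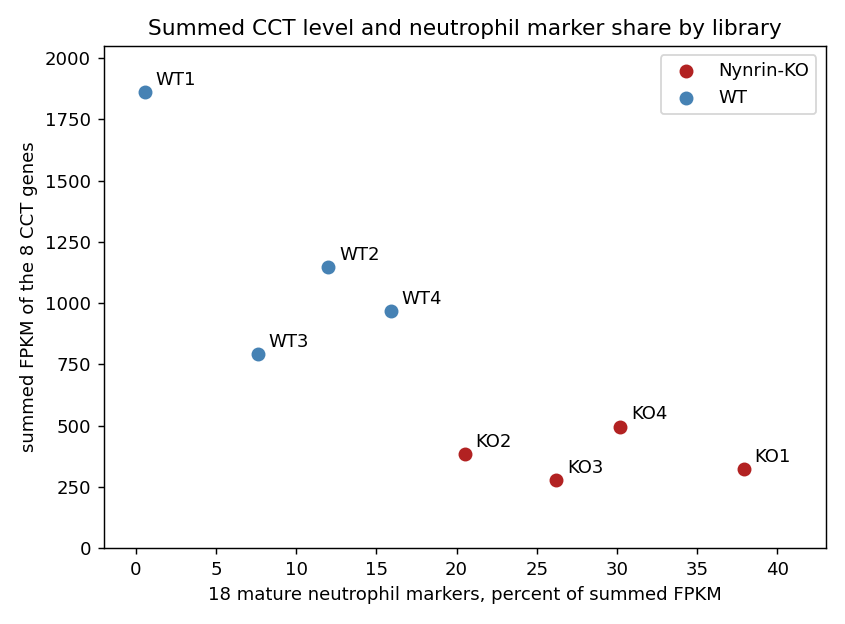
Summed FPKM of the 8 CCT genes against the percent of summed FPKM held by 18 mature neutrophil markers, with a point for each Nynrin-KO and WT library. The 4 Nynrin-KO libraries lie at 20.5% or more and at 496 FPKM or less, and the 4 WT libraries at 15.9% or less and at 792 FPKM or more.

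The profile of the subunits over the 8 libraries was compared with that of 3235 other genes with a mean of at least 10 FPKM, by the root mean square difference of centred log2(FPKM + 1). The genes nearest to the subunit mean were Rpn2, a subunit of the oligosaccharyltransferase, at 0.067, and Nme1, a nucleoside diphosphate kinase, at 0.079. Prmt5, an arginine methyltransferase, and the nucleolar protein Rsl1d1 were both at 0.091, the RNA helicase Ddx39 was at 0.099 and the ADP/ATP carrier Slc25a5 at 0.110. Rpn2 averaged 73.2 ± 19.5 FPKM in Nynrin-KO and 215 ± 70.5 FPKM in WT, and Slc25a5 averaged 450 ± 89.0 FPKM in Nynrin-KO and 1504 ± 519 FPKM in WT. Of the subunits themselves, Cct3 lay closest to their mean at 0.059, with 0 of the 3235 genes nearer, and Cct8 followed at 0.089 with 2 nearer. Cct4 and Cct6a lay farthest, at 0.226 and 0.276, with 159 and 274 genes nearer than they were.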

How the data were processed

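RNA-seq of 8 libraries, 4 Nynrin-KO and 4 WT, was read from 1 table that the authors deposited. The table names no unit; the deposited values were taken to be FPKM, since they summed to nearly the same total in each library once multiplied by transcript length. Per the submitters' processing notes, the build was mm10 and the tools were Bowtie 0.12.9, Cufflinks 2.1.1 and HTSeq; no source used here gives their roles, the use of strand or the handling of shared reads. Groups and replicate numbers came from the sample titles.

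Reads were recovered from FPKM and the longest GENCODE M21 transcript; between 99.43% and 99.75% of values per library were whole within 0.1 read. The level that 3 reads give for 1 kb ranged between 0.105 and 1.64 FPKM in Nynrin-KO and between 0.0907 and 1.53 FPKM in WT, which covers counting error only. Gene identifiers matched M21 for 99.62% of genes.

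The fit took the 12524 genes that reached 1 FPKM in 4 or more of the 8 libraries. It used log2(FPKM + 1) values, limma 3.58.1 under R 4.3.3, genotype alone, trend and robust variances, two-sided, Benjamini-Hochberg threshold 0.05. All 8 subunits passed the filter in both genotypes. Log2 differences are Nynrin-KO minus WT and understate low genes. Other work used Python 3.11.15, pandas 2.3.3 and blastn 2.17.0; the fit was tested on simulated data.

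The subunits, the lists and the tests were chosen with earlier results of these data known. Of each list, up to 4 genes past the threshold with the smallest p were named, and at most 2 where none was past it. Alternatives covered the pseudocount, the filter, scaling, the replicate block, each library left out, WT1 and KO1 left out, the libraries with 10000 FPKM or more of Gm10800, and voom on recovered reads, and, chosen after seeing the data, the principal transcript length and scaling outside neutrophil markers and Gm10800.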

Additional observations from a re-analysis of the deposited data

Results flagged for a closer look

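Of 124 groups of 4 libraries examined, 5 held a library whose gap to its nearest neighbour exceeded Dixon's critical value for 4 samples, and chance gives about 5%. None of the 5 was a CCT subunit. Wrap53, a telomerase protein that CCT folds, was lowest in Nynrin-KO at 0.579 FPKM in KO3. Pfdn6, the prefoldin gene with the smallest p, was highest in WT at 24.0 FPKM in WT1. Actr2, an actin-related protein, was highest in WT at 119 FPKM in WT3. Gnb1, a G protein beta subunit, was lowest in WT at 30.2 FPKM in WT3. Rsl1d1, among the genes nearest to the subunit mean, was highest in WT at 112 FPKM in WT1.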

How the results depend on the processing

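Over 17 alternatives each subunit stayed lower in Nynrin-KO, with a median log2 difference between -1.71 and -1.23. Calls fell to 5 of 8 subunits with WT1 and KO1 left out (Cct2, Cct4 and Cct7 lost), 6 with no filter (Cct2 and Cct4 lost), 7 in the libraries high in Gm10800 (Cct2 lost) and 7 without KO1 (Cct4 lost). The main 3488 genes changed (1734 lower, 1754 higher) became 1698 (908, 790) with no filter, 1579 (814, 765) with WT1 and KO1 left out and 925 (714, 211) in the libraries high in Gm10800. The share of lower calls was 49.7% in the main fit, 77.2% in the libraries high in Gm10800 and 39.6% when scaled to reads outside neutrophil markers and Gm10800 (1552 lower of 3918), where the median of all genes was 0.08, against -0.03. Of 11 partner and substrate genes past the threshold (10 lower, 1 higher), the total became 17 with voom, and the higher count became 0 with no filter, with WT1 and KO1 left out and in the libraries high in Gm10800, 2 after quantile normalization, 4 outside neutrophil markers and Gm10800 and 5 with voom. Per kilobase of the principal transcript, 5 neighbouring pairs of the main order were called, against 3, and Cct6a to Cct7 reversed to -0.60 (exact permutation, adjusted p = 0.0137), as did Cct2 to Tcp1 to -0.44 (exact permutation, adjusted p = 0.0219). Leaving out each library in turn gave 2358 to 3606 genes changed (1204 to 1852 lower, 1020 to 1875 higher), 7 to 8 subunits lower, a median subunit difference of -1.71 to -1.30, a summed CCT difference of -1.82 to -1.41, 10 to 14 list genes past the threshold (9 to 12 lower, 1 to 5 higher), 3 to 4 ordered pairs and a neutrophil share 16.6 to 22.5 points higher. Without WT1 that share was 16.9 points higher, with an exact permutation p of 0.0571 over 7 libraries. The replicate block gave 2838 genes changed and 8 subunits lower. The deviations of same-numbered libraries correlated at -0.21, -0.39, 0.33 and 0.01. These correlations show no pairing by number, but with 4 libraries per genotype they cannot exclude it. KO3 and WT3, at 1.83 and 1.96 M reads, limit the precision of low genes.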
